A study of Mus musculus with 2 samples.

Results

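Open chromatin far from genes was examined in mouse mast cells with and without the DNA methyltransferase Dnmt3a. The regions described here were selected from 2 lists of ATAC-seq peaks, 1 for each genotype. Peaks that shared at least 1 bp were merged into regions on chromosomes 1 to 19 and X, and a region was kept as a member if it held a peak of both lists, overlapped no protein-coding gene and lay more than 50 kb from the nearest one. Of 23364 merged regions, 882 met this rule (3.78%, 95% interval 3.53 to 4.03). They made up 6.85% of the 12871 regions held in both lists, which are called shared regions below (6.42 to 7.30). Presence in both lists and the distance to genes therefore chose the members and are not findings.

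Mammalian genes are often controlled by enhancers, short stretches of open DNA that bind transcription factors and can contact a promoter over long distances. Enhancers far from any gene are often active in few cell types, and many are transcribed into short-lived or long noncoding RNA. ATAC-seq finds open DNA through the Tn5 transposase, which inserts sequencing adapters where nucleosomes do not block it. Dnmt3a adds methyl groups to unmethylated CpG sites, and enhancers are among the sequences whose methylation it is known to affect. Mast cells are the IgE-binding granulocytes of tissues. Their growth depends on the receptor Kit, and GATA and Runx factors and Mitf take part in their development.

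The wild-type group was 1 library from a wild-type littermate culture and the knockout group was 1 library from a DNMT3A-KO culture. Both were primary bone marrow-derived mast cells (BMMCs) from age-matched female mice, 3 to 4 weeks old by the culture protocol and 3 weeks old by the design text. Cells of both genotypes had grown for 4 weeks in IL-3, with no other treatment, until more than 95% stained for Kit and FcεRIα. The labels do not give the exons deleted, a Cre driver or whether marrow of several mice was pooled, and interleukin 3 culture gives mast cells without a tissue. With 1 library of each genotype no difference below was set against a spread between animals, and none was tested. In a bulk library, fewer cells with an open site and a less open site in each cell cannot be told apart.

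The lists held 17170 wild-type and 19684 knockout peaks and gave no total read count. The median summit pileup, the number of extended reads stacked over a peak's highest point, was 9 in both lists. Summed over all shared regions, the knockout library held 52.2% of the pileup of both libraries, called the pooled share below. Each list had regions over or within 10 kb of 7 of 8 mast cell marker genes, although Fcer1a had one only in the wild-type list and Hdc only in the knockout list. Marker genes of other blood cells also had regions, at 3 wild-type and 1 knockout of 3 basophil genes, 4 and 5 of 6 neutrophil genes, 1 and 2 of 4 macrophage genes, 1 and 2 of 4 B cell genes, 3 and 4 of 4 T cell genes, and 4 and 4 of 4 erythroid and megakaryocyte genes. Csf1r, Pax5 and Tcf7 had a region only in the knockout list, Mcpt8 and Prss34 only in the wild-type list, and Adgre1, Ebf1 and Ngp, among others, in neither. What other cells in the cultures added to any value below was not tested.

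Some members lay at annotated starts of long noncoding RNAs, and these are the members whose sequence could be read, from RefSeq promoter windows of assembly GRCm38.p6, the build that mm10 names. Each window holds 250 bases before and 50 bases after a start. Of the 882 members, 23 (2.61%, 1.66 to 3.89) had a summit in such a window, all of them windows of lncRNA genes. The distance rule keeps members away from the starts of protein-coding genes, so no share of other regions is set beside this one. The overlaps of 9 of these members with their windows are printed below, 5′ to 3′ on the strand of the RNA. Capitals mark every match, on either strand, to the letters AGATAA or TGATAA (the GATA factor motif), TGTGGT (Runx), AGGAAG or CGGAAG (ETS), TGANTCA (AP-1), CACGTG or CATGTG (the Mitf E-box), TTCNNNGAA (STAT), TTGCNNAA (C/EBP) and AGGGGGC (part of the CTCF motif). A capital stretch can join overlapping matches. The first 5 are shown because they hold GATA letters and ranked far lower in the knockout list, the next holds GATA letters without such a difference, and the last 3 have none.
Gm31904: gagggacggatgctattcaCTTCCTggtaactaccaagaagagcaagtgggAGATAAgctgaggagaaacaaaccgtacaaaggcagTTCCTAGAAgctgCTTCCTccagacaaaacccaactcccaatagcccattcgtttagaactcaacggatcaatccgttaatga
5730460C07Rik: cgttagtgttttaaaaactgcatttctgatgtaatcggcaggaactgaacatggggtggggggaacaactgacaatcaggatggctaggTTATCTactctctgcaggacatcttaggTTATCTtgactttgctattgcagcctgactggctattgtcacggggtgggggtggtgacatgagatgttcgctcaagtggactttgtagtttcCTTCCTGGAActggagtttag
Gm36408: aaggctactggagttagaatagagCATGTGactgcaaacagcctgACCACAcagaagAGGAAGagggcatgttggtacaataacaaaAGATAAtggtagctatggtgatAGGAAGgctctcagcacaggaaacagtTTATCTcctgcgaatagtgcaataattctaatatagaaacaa
Gm39767: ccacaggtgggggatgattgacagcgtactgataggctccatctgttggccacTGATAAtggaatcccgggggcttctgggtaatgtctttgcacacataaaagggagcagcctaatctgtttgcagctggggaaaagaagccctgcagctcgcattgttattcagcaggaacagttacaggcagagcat
Gm31828: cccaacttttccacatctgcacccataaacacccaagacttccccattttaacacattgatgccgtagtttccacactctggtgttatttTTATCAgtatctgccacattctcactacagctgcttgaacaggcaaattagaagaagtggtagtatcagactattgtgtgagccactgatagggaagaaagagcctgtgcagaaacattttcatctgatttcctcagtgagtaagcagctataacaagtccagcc
Gm35891: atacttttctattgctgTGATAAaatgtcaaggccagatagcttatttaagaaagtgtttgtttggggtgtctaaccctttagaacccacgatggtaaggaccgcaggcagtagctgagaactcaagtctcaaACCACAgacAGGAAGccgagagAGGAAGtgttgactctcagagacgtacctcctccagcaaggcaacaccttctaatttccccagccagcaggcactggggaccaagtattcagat
Gm41043: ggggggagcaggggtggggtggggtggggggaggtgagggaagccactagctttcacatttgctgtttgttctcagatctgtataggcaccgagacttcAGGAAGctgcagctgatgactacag
D130051D11Rik: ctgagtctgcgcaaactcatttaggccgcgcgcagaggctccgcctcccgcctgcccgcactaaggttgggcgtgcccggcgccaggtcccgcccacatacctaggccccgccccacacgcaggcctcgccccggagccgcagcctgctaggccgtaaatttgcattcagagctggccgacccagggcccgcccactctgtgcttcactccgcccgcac
Jpx: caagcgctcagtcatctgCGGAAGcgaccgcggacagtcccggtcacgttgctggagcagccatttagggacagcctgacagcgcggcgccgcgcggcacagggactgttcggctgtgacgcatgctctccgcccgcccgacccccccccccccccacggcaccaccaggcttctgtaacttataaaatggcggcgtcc

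These stretches lie at the following places. The Gm31904 stretch is chr10:10234950-10235119, minus strand, between Stxbp5 and Adgb, and the 5730460C07Rik stretch is chr3:153792107-153792337, minus strand, between St6galnac3 and Asb17. The Gm36408 stretch is chr6:66272315-66272492, minus strand, near Mad2l1, the Gm39767 stretch is chr2:21964118-21964307, minus strand, between Gpr158 and Myo3a, and the Gm31828 stretch is chr4:93481346-93481600, minus strand, near Tusc1. The Gm35891 stretch is chr3:51128890-51129138, minus strand, near Noct. The Gm41043 stretch is chr13:101548103-101548226, minus strand, near Pik3r1, the D130051D11Rik stretch is chr15:85634427-85634645, plus strand, between Wnt7b and Ppara, and the Jpx stretch is chrX:103493409-103493607, plus strand. Jpx is a noncoding RNA gene of the X-inactivation centre that promotes expression of Xist.

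The members at noncoding starts differed in base composition from other accessible noncoding starts. Those other starts belonged to shared regions over or within 50 kb of protein-coding genes. The distance rule therefore separates the sets compared, and its part in the differences below was not tested. GATA letters stood in 12 of the 23 windows (52.2%, exact interval 30.6 to 73.2). They stood in 8.84% (6.001 to 12.5) of the 328 lncRNA windows that held a summit of another shared region, in 23.6% of all 11573 lncRNA windows and in 18.6% of all windows of this length. The 23 windows had a median of 50.7% G and C and 6 CpG sites, against 63.3% and 25 in the 328 windows and 48.3% and 4 in all lncRNA windows. ETS letters were about as frequent in the 23 windows (60.9%) as in the 328 (57.0%), and Runx letters were found in 34.8% and 14.3%, with an interval of 16.4 to 57.3 for the former. AP-1 letters were in 21.7% and 5.18%, Mitf E-box letters in 39.1% and 19.5%, STAT letters in 13.0% and 8.23%, C/EBP letters in 8.70% and 7.01% and the CTCF letters in 13.0% and 18.6%. The intervals of the 23 windows excluded the value of the 328 for GATA, Runx, AP-1 and Mitf E-box letters, but those windows were richer in G and C. In all lncRNA windows, whose G and C content was closer to that of the 23, Runx letters stood in 20.1%, AP-1 letters in 9.31% and Mitf E-box letters in 23.6%. All 3 values lay inside the intervals of the 23 windows, while the 23.6% for GATA letters lay below theirs. A match is a string of letters and was not shown to be bound.

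The GATA members printed first were picked for their lower knockout ranks, so those rank differences are a description. The −log10 q values below are the authors' and rank peaks within their own list. A percentile is the rank of a member among the same 12871 shared regions in each list, from 0 for the weakest to 100. The Gm31904 member had a pileup of 9 in wild-type and 4 in knockout cells and moved from percentile 62.3 to 2.12. For the 5730460C07Rik member the pileups were 29 and 12 and the percentiles 92.2 and 27.5, and for the Gm36408 member they were 13 and 7, and 67.1 and 13.2. All 3 were higher in the wild-type library. Those 3 hold AGATAA. The Gm39767 and Gm31828 members, whose GATA letters are TGATAA, were lower as well. Gm39767 had 11 and 7 reads (percentiles 55.6 and 21.7) and Gm31828 had 11 and 8 (61.2 and 26.9). The Gm35891 member, whose GATA letters are also TGATAA, had 11 reads in both libraries. The Gm41043 member went the other way, from 6 to 18 reads and from percentile 7.22 to 82.6, and the Jpx member had 11 reads in both. Ranks changed little for the D130051D11Rik member (percentiles 97.8 and 98.8) and the Jpx member (53.6 and 49.0). The Gm41113 and Gm30657 members, not printed, have no GATA letters in their overlaps. Their rank differences, knockout minus wild type, were −45.7 and −43.0 points.

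GATA letters stood in the overlap of 8 members with their windows, not all of them printed above. Of these 8, 6 ranked at least 25 points lower in the knockout list and 0 at least 25 points higher. Their median difference was −34.1 points (range −64.7 to −2.75). Of the 15 without, 2 ranked lower and 2 higher, with a median of −4.62 (range −45.7 to 75.4). Over whole windows the numbers were 6 lower and 2 higher of 12 with GATA letters, and 2 lower and 0 higher of 11 without. Among the 4374 other shared regions with a summit in a promoter window, 12.0% with GATA letters in the whole window and 11.5% without ranked lower. By whole windows no split was seen there, and overlaps alone were not scored for those regions. It was looked at after the ranks were known, it rests on 23 regions, and the pileup of only 1 of the 6 lower members, that of 5730460C07Rik, lay beyond counting error.

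Members were sparse for the length of DNA they could occupy. Territory more than 50 kb from any protein-coding gene covered 941 Mb, 36.2% of the 2600 Mb between the first and last gene of each chromosome, and held 0.937 members per Mb (0.877 to 1.001). The remaining territory held 7.23 other shared regions per Mb (7.10 to 7.36). By distance, 374 members lay 50 to 100 kb, 319 lay 100 to 200 kb, 152 lay 200 to 500 kb and 37 over 500 kb from the nearest gene. Far regions found in 1 list only numbered 562 for the knockout and 351 for the wild type. They were 8.59% of all knockout-only and 8.88% of all wild-type-only regions, both above the 6.85% of shared regions, with intervals from 7.92 to 9.30 and from 8.01 to 9.81.

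Regions over genes were held in both lists more often than regions between genes. The rule used both sharing and distance, so the shares below are a description. Of all merged regions 55.1% were held in both lists. The share was 58.0% over genes, 48.7% between genes within 50 kb (47.4 to 50.1) and 49.1% beyond 50 kb (46.8 to 51.5). Within the far territory it was 46.5% at 50 to 100 kb, 54.7% at 100 to 200 kb (50.6 to 58.8), 46.9% at 200 to 500 kb and 44.0% farther out (33.2 to 55.3). Apart from the class at 100 to 200 kb, these intervals all held the intergenic value of 48.7%. When regions were put in 4 equal classes by −log10 q in the wild-type list, far regions were shared in 46.6, 65.2, 86.1 and 99.1% of cases from the weakest class to the strongest, and other regions in 50.7, 67.9, 89.1 and 99.05%. By −log10 q in the knockout list the shares were 32.8, 55.9, 78.6 and 93.7% for far regions and 34.9, 51.9, 81.2 and 97.5% for others. The exact intervals of far and other regions overlapped in every class but the strongest of the knockout list (89.97 to 96.4 against 97.0 to 97.9).

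**Figure D1:**
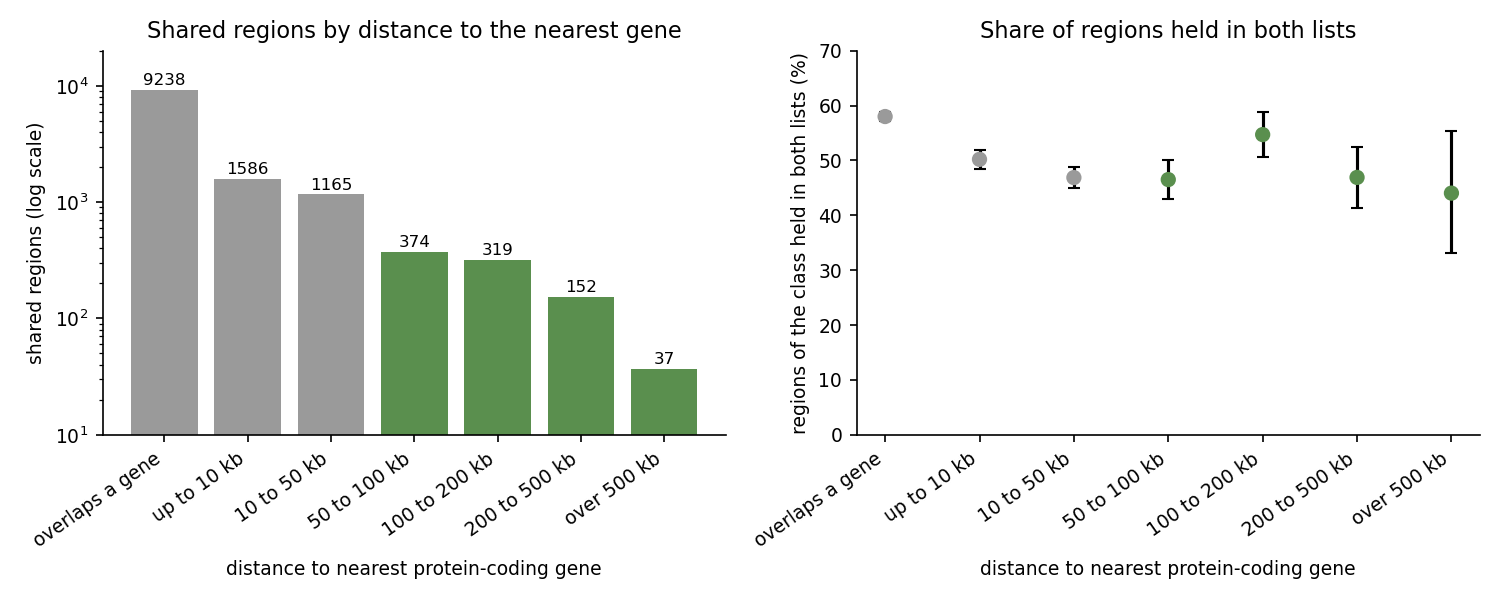
Number of shared regions (left, log scale) and share of regions held in both lists (right, with exact 95% intervals) by distance to the nearest protein-coding gene. Green marks the 4 classes of members, which hold 374, 319, 152 and 37 regions, and gray marks shared regions over or nearer to genes.

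The members were weaker peaks than other shared regions, more so in the knockout list. Their median −log10 q was 9.43 (8.93 to 9.78) for the wild type and 9.88 (9.53 to 10.2) for the knockout, against 10.1 and 11.5 for other shared regions. Their median pileup was 9 in both libraries, with middle ranges of 7 to 12 and 7 to 13, against 11 and 12. Peaks were slightly narrower, with medians of 160.5 and 170 bp against 174 and 189, but no narrower than intergenic regions within 50 kb, at 160 and 173 bp. The median percentile of members was 45.2 (41.6 to 48.0) in the wild-type list and 40.03 (37.4 to 42.7) in the other. Shared intergenic regions within 50 kb of a gene stood at 44.3 and 43.4 (41.9 to 45.2 for the latter) and gene-overlapping regions at 52.2 and 52.9. Members thus matched the nearer intergenic regions in the wild-type list. In the knockout list their median lay slightly lower, with overlapping intervals. In both lists together, 22 members (2.49%) ranked among the strongest 10% of shared regions, against 6.29% of the others (difference −3.79 points, −4.75 to −2.47).

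The summits of both lists lay close together in most members. Their peaks had to overlap by the rule, which makes this likely, so the distances are a description. Wild-type and knockout summits lay a median of 28 bp apart and within 50 bp in 654 members (74.1%), against 73.5% of other shared regions (difference 0.62 points, −2.47 to 3.52). More than 1 peak of a list fell in 39 members (4.42%), against 4.45%. Regions of a single list were sparse beside members, as the distance rule makes likely. Territory beyond 50 kb, 36.2% of the span between first and last genes, held 8.59% of knockout-only and 8.88% of wild-type-only regions. The neighbour shares below are therefore a description. A knockout-only region lay within 10 kb of 75 members (8.50%) against 14.8% of other shared regions (difference −6.32 points, −8.11 to −4.20) and 15.7% of the nearer intergenic ones, and a wild-type-only region of 73 members (8.28%), against 10.5% and 11.1%. Across members, −log10 q in the 2 lists correlated with a Spearman rho of 0.557 (n = 882), against 0.676 across the 11989 other shared regions. Both correlations are over regions of the same 2 libraries, and weak peaks carry more counting noise.

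As a group the members shifted slightly toward lower ranks in the knockout list. The median difference in percentile, knockout minus wild type, was −2.74 points (−4.18 to −1.04), against −0.04 for other shared regions (−0.33 to 0.29). A rank at least 25 points higher in the knockout list was found for 126 members (14.3%) where 13.9% of all shared regions had one. A rank at least 25 points lower was found for 143 members (16.2%) where 13.6% of all shared regions had one. The excess of lower ranks over other shared regions was 2.76 points (0.39 to 5.41), and over intergenic regions within 50 kb it was 0.76 points (−1.91 to 3.65). The median difference of those nearer intergenic regions was −0.96 points (−1.81 to −0.10), in the same direction and smaller, and its interval overlapped that of the members. Their knockout share of summed pileups was 51.8%. Summed over all members the pileups were 9548 and 10047, a knockout share of 51.3% (50.6 to 51.98), against 52.3% for other shared regions. The upper bound lay below the pooled 52.2%, and without the 4 regions at Rn18s-rs5 described below the share was 51.5% (50.7 to 52.2). These intervals cover counting error over regions and reads, not differences between animals.

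Few single members differed beyond counting error, which here means by an unadjusted 95% interval. The rule keeps only sites called in both lists, and the median pileup of members was 9. Both limit how many members could differ in this way. The exact 95% interval of the knockout share of the summit pileups lay wholly above the pooled share for 3 members (0.340%, 0.0702 to 0.991), where 0.218% of all shared regions did so, and wholly below it for 4 members (0.454%, 0.124 to 1.16), where 0.117% did. The intervals of all the other members held that share. No adjustment was made for 882 members, so counting error alone can put some intervals off the pooled share. All 3 higher members also ranked at least 25 points higher, and 3 of the 4 lower members ranked at least 25 points lower.

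The 3 higher members all lay on chromosome 13. One at chr13:52004031-52004294, 156 kb from Gadd45g, a stress-induced gene whose family has been linked to DNA demethylation, had 10 wild-type and 24 knockout reads. Its −log10 q was 11.0 and 27.9 and its knockout share 70.6% (52.5 to 84.9). A second at chr13:105377110-105377324, 66.4 kb from the serotonin receptor gene Htr1a and 82.3 kb from Rnf180, had 7 and 19 reads (73.1%, 52.2 to 88.4). The third was the Gm41043 member 133 kb from Pik3r1, which encodes the regulatory subunit p85α of phosphoinositide 3-kinase, with 6 and 18 reads (75%, 53.3 to 90.2). The lower bounds of all 3 lay close to the pooled share.

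The 4 lower members included strong sites of the wild-type list. At chr5:85781209-85781394, 231 kb from Cenpc1, the pileup was 16 in wild-type and 5 in knockout cells (23.8%, 8.22 to 47.2), and the percentile went from 90.7 to 5.52. The 5730460C07Rik start had 29 and 12 reads (29.3%, 16.1 to 45.5). A site at chr16:93219606-93219999, 394 kb from Runx1 and 363 kb from Setd4, had 30 and 16 (34.8%, 21.4 to 50.2). At chr3:5860591-5860832, 282 kb from the peroxisome gene Pex2, the second strongest member of both lists, they were 55 and 39 (41.5%, 31.4 to 52.1), so this site stayed near the top of both lists.

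**Figure D2:**
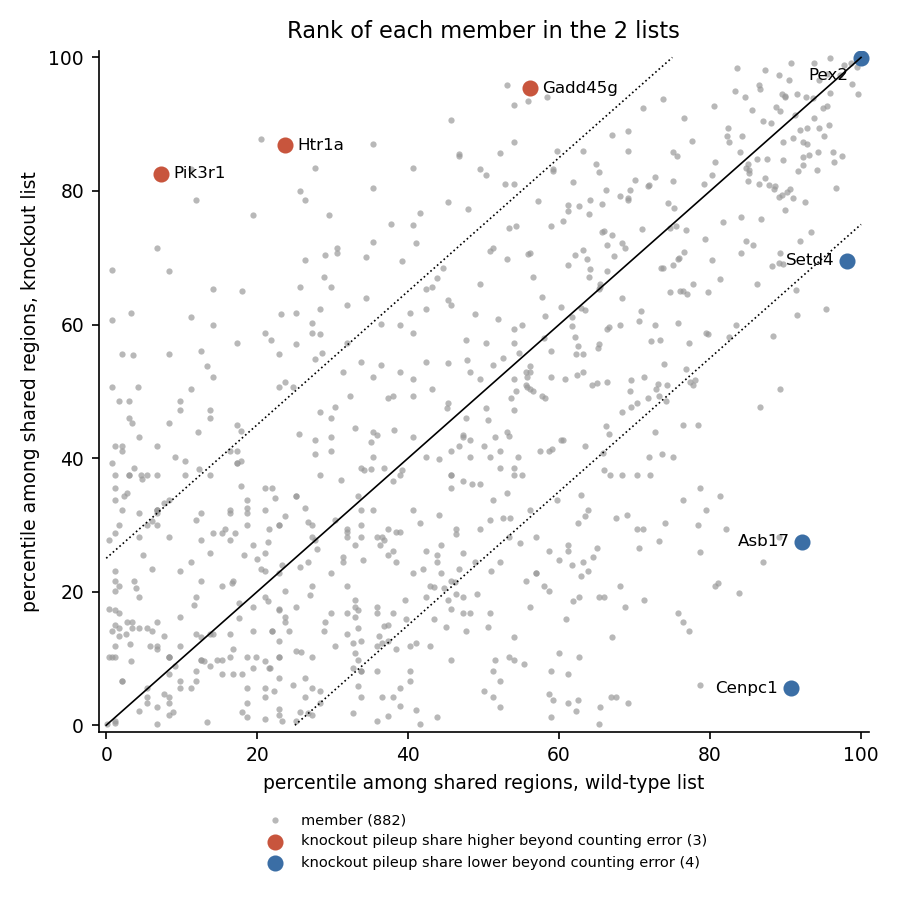
Percentile of each of the 882 members among the 12871 shared regions, in the wild-type list (x axis) and the knockout list (y axis). The solid line marks equal ranks and dotted lines a difference of 25 points, with 126 members on or above the upper and 143 on or below the lower line. Large points are the 3 members with a knockout share of reads above, and the 4 below, the pooled share beyond counting error, named by the nearest gene.

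Other members had large rank differences within counting error. Higher in the knockout list were members near Galnt18 (6 wild-type and 16 knockout reads, percentile 11.2 to 83.3), Xpr1 (4 and 13, 0.78 to 68.2), Skap2, which encodes an adaptor protein of leukocyte adhesion (7 and 18, 20.5 to 87.8), and Sp4 (5 and 14, 11.9 to 78.7). Lower were members near Pla2g4a and Ptgs2 (13 and 6, 78.7 to 6.01), Rora (12 and 5, 69.2 to 3.40) and Lcorl (10 and 4, 65.3 to 0.14). Pla2g4a encodes cytosolic phospholipase A2, which frees arachidonic acid, and Ptgs2 the inducible cyclooxygenase that converts it. The member between them, at chr1:150012518-150012711, lay 51.2 kb from Pla2g4a and 87.3 kb from Ptgs2. Its knockout share was 31.6% (12.6 to 56.6), an interval that held the pooled share.

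The 10 strongest members were picked by their mean percentile over both lists, so their high ranks are a description. The first lay at chr11:109011629-109012113 inside the lncRNA gene Gm36876, 60.8 kb from Axin2, an inhibitor of Wnt signalling, with a −log10 q of 86.8 and 69.0 and 85 and 69 reads. It ranked first of all shared regions in both lists. After it and the Pex2 member came sites near Glrp1 (36 and 36 reads), Sall3 (25 and 30), Wnt7b at the D130051D11Rik start (35 and 40), Sesn3, a stress-response gene (24 and 37), Hs3st3a1 (31 and 30), Foxo1 (24 and 25), Chst15 (32 and 24) and Il6 (22 and 27). Hs3st3a1 and Chst15 encode enzymes that put sulfate on heparan and chondroitin sulfate chains. Of these 10 members only the Pex2 site, with 55 and 39 reads, differed beyond counting error. Their percentiles ranged from 95.5 to 99.996 in the wild-type and from 94.5 to 99.996 in the knockout list.

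Listed genes of mast cell biology had members on their flanks. The lists hold 40 mast cell and blood transcription factor genes, 29 surface and effector genes and 22 signalling genes, and a member was counted where the listed gene was the next gene on either side within 500 kb. This gave 93 distinct members. By the same count 777 of all 21631 protein-coding genes (3.59%) were next to a member, and 13.9% of all shared regions ranked higher and 13.6% lower by 25 points in the knockout list. The lists were chosen with earlier results known, so their counts are descriptions. Transcription factor genes with members numbered 14 of 40, with 49 members, of which 4 ranked higher and 11 lower by 25 points in the knockout list (median percentile 47.3 and 36.6). Surface and effector genes numbered 6 of 29, with 21 members, 2 higher and 7 lower (62.4 and 52.4), and signalling genes 7 of 22, with 23 members, 6 higher and 3 lower (50.1 and 51.7). The median of all members was 45.2 and 40.03. In knockout share of reads the 3 lists had 48.8% (45.6 to 52.01), 48.3% (43.9 to 52.7) and 54.1% (49.7 to 58.5), of which only the first interval excluded the pooled 52.2%.

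Kit, which encodes the receptor for stem cell factor, had 10 members within 500 kb, 7 of them upstream and 3 downstream. In order from the most distant upstream site their wild-type pileups were 14, 9, 31, 11, 13, 23, 19, 7, 14 and 21, and their knockout pileups 8, 11, 19, 7, 14, 24, 13, 5, 12 and 25. The reads summed to 162 and 138, a knockout share of 46.0% (40.3 to 51.8), just under the pooled share of 52.2% but holding the 51.3% of all members. Without the 5 members to which another gene was nearer, the sums were 73 and 63 and the share 46.3% (37.7 to 55.1), an interval that held the pooled share. Of the 10 members 5 ranked at least 25 points lower in the knockout list, as did 13.6% of all shared regions, and 0 at least 25 points higher, as did 13.9%. The largest difference in reads was at chr5:75383220-75383538, 191 kb upstream, with 31 and 19. The site nearest to the gene, 70.9 kb upstream, was also lower, with 19 and 13 reads (percentile 88.4 to 58.3). Sites 114 kb upstream (23 and 24 reads) and 170 kb downstream (21 and 25) were not.

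Id2, an inhibitor of basic helix-loop-helix factors, had 6 members, all upstream at 68.8 to 440 kb. Their wild-type pileups were 11, 13, 9, 10, 4 and 9 and their knockout pileups 7, 9, 4, 7, 5 and 6, so 5 of 6 were lower in the knockout library. Those 5 had rank differences of −57.7 to −34.0 points, and the sixth, 360 kb away, one of 9.06 points. The sums were 56 and 38 reads, a knockout share of 40.4% (30.4 to 51.0). The 4 nearest members all lay inside 1 lncRNA gene, Gm36287. With all their members counted, Id2 and Kit were the only 2 of 27 listed genes whose summed reads gave an interval below the pooled share, and Pik3r1, with its 1 member, the only one above it. The intervals were not adjusted for 27 genes.

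Runx1, a core factor of blood development, was flanked by 12 members, the most of any listed gene. All lay upstream, 57.8 to 467 kb from the gene. Apart from the site 394 kb away described above, their pileups were 7 to 11 wild-type and 6 to 16 knockout reads. The highest knockout value was at 322 kb, with 10 and 16 reads (percentile 45.2 to 78.4). The sums of 126 and 116 gave 47.9% (41.5 to 54.4). Its relative Runx3 had 3 members (36 and 40 reads) and the ETS factor gene Erg 1 (7 and 7).

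Other transcription factor genes showed no common direction. Hes1, a target of Notch signalling, had 8 members with 83 and 83 reads, 2 of which ranked higher in the knockout than in the wild-type list. Cebpb, a factor of myeloid and basophil fate, had 4 downstream members with 11, 12, 14 and 8 wild-type reads and 6, 13, 12 and 4 knockout reads, and a knockout share of 43.8% (32.7 to 55.3). Meis1 had 5 members (44 and 49 reads), Myc 2 inside the lncRNA gene Pvt1 (24 and 29), Ikzf2 2 (21 and 23), Tox 2 (10 and 13), and Bcl6, Nr4a2, Tcf4 and Zeb2 1 each, with 23 and 20, 11 and 8, 9 and 7, and 4 and 8 reads.

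Among effector and signalling genes, the cytokine gene Il6 had 5 members upstream at 61.4 to 170 kb. From the most distant they had 6, 5, 13, 22 and 13 wild-type reads and 12, 7, 9, 27 and 12 knockout reads, and summed to a share of 53.2% (44.1 to 62.1). Btg1, an antiproliferative gene, had 9 members upstream with 84 and 105 reads (55.6%, 48.2 to 62.8), 3 of which ranked at least 25 points higher and 1 lower. Dusp6, which encodes a phosphatase of the ERK kinases, had 3 (32 and 31) and Spred1, an inhibitor of Ras signalling, 2 (33 and 33). The regulators of G-protein signalling Rgs1 and Rgs2 had 2 (12 and 18) and 3 (27 and 30). Hs3st1, of heparan sulfate synthesis, had 3 (26 and 30), and Cd34 and Itga4 1 each (5 and 6, 4 and 4). Every one of these intervals held the pooled share.

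**Figure D3:**
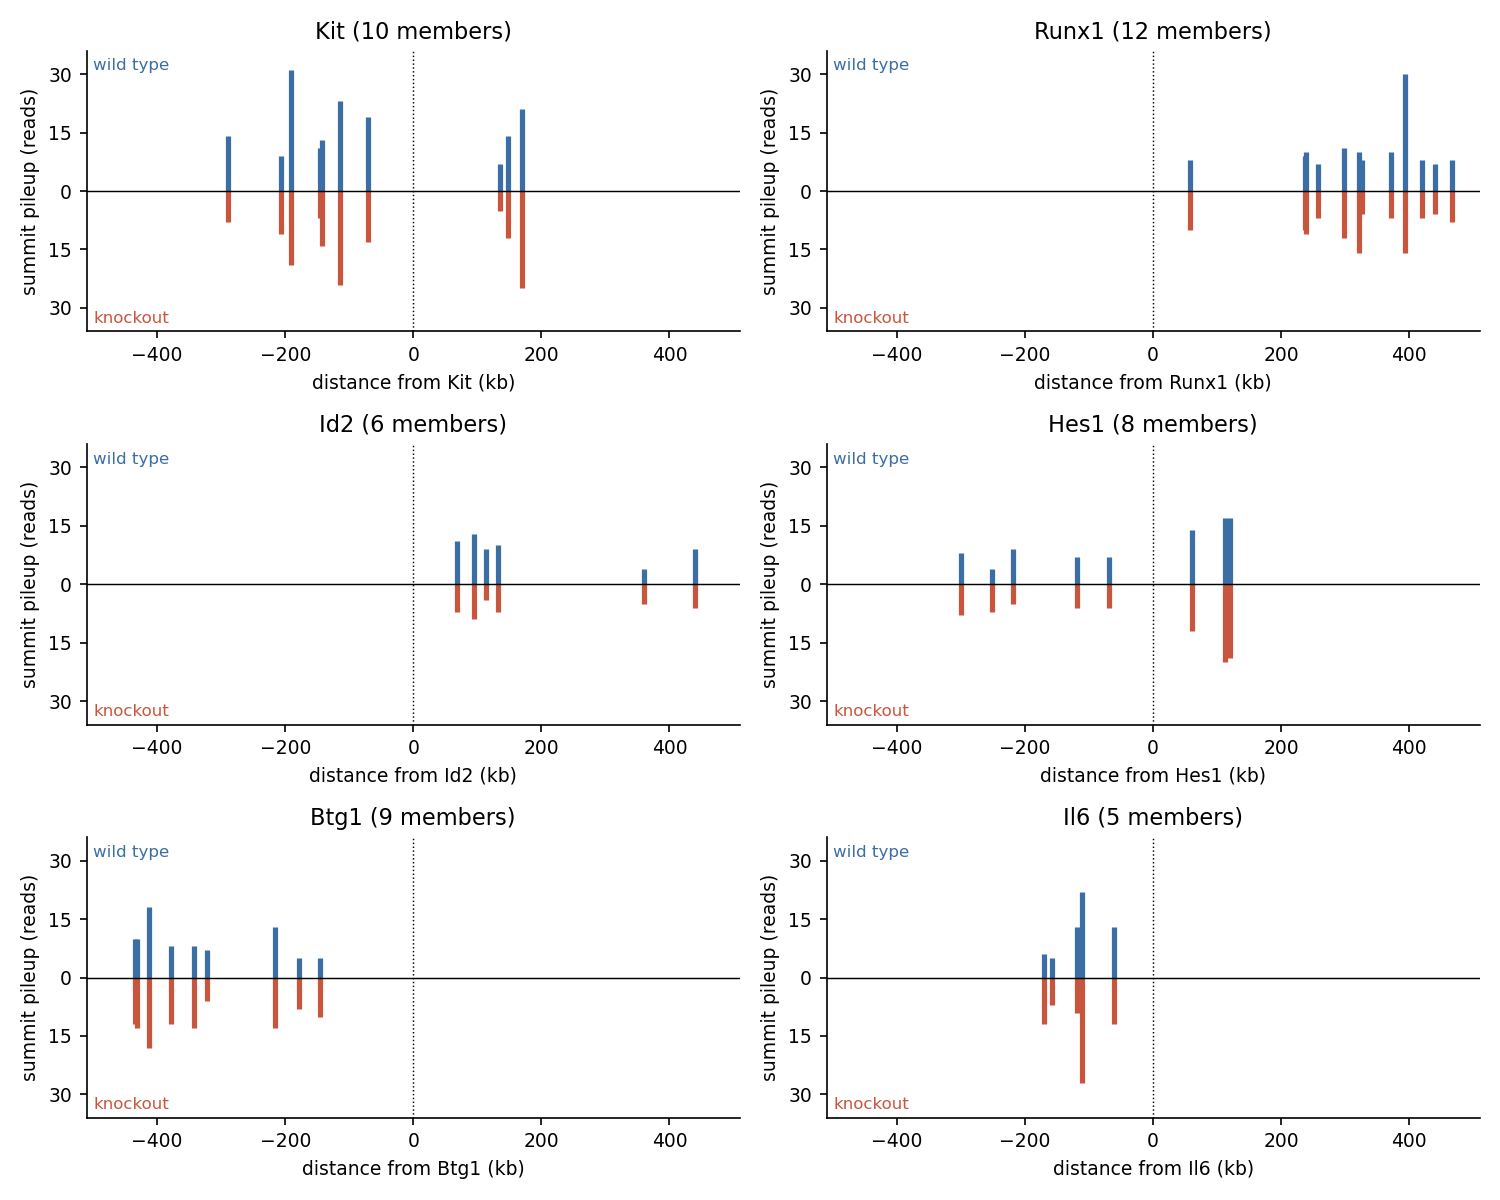
Summit pileups of members around 6 listed genes, with wild-type reads above and knockout reads below the zero line, by distance from the nearer edge of the gene in kb (negative: lower coordinates). Kit has 10 members on both sides, Runx1 12 and Id2 6 on one side only, and 5 of the 6 Id2 members are taller in the wild-type library.

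**Figure D4:**
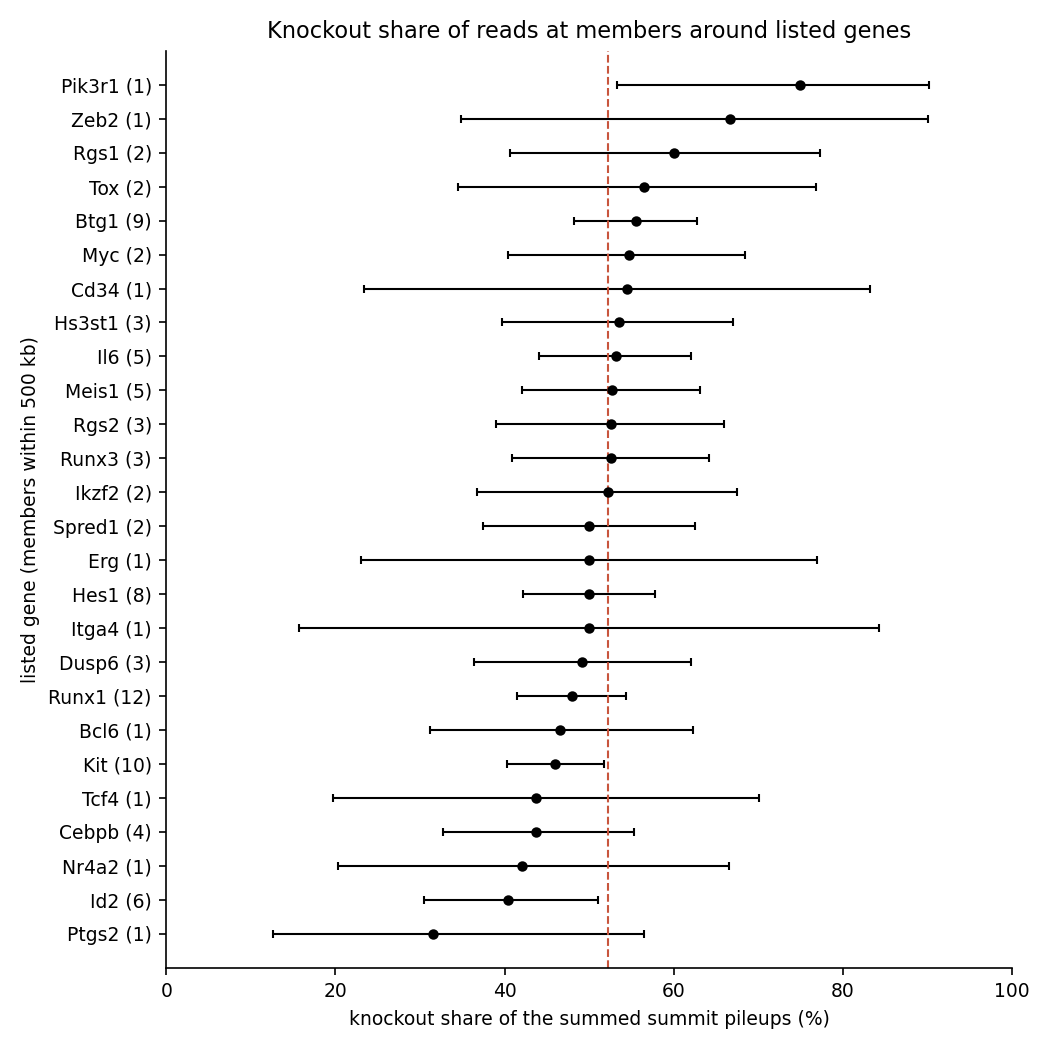
Knockout share of the summed summit pileups of members around 26 of the 27 listed genes that have members, with exact 95% intervals and the number of members in parentheses. The dashed line is the share over all shared regions, 52.2%. The intervals of Id2 and Kit lie below the line and that of Pik3r1 above it.

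Counted by the single nearest gene, the 882 members belonged to 553 genes, of which 374 had 1 member and 19 had 5 or more. Runx1 was nearest to 8 members, Gsdmc to 7, and Cited2, Eea1, Id2, Klf14 and Uaca to 6 each. Among the 19, only Id2 had an interval below the pooled share. Trib2, a pseudokinase gene, stood at the other end with 5 members and 38 and 59 reads (60.8%, 50.4 to 70.6), 3 of them at least 25 points higher in the knockout list. That interval still held 52.2%. Cited2, a coregulator of hypoxia-inducible and blood stem cell factors, had 56 and 52 reads, and 5 of its members lay in the lncRNA gene Gm32543. Foxo1, an effector of phosphoinositide 3-kinase signalling, had 72 and 72.

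Members overlapped noncoding genes often. An annotated lncRNA, pseudogene or other noncoding gene overlapped 252 members (28.6%, 25.6 to 31.7), against 12.4% of other shared regions and 21.2% of intergenic ones within 50 kb (difference 7.42 points, 4.13 to 10.8). Of these, 228 members lay in 204 lncRNA genes. Lncpint, a p53-induced lncRNA, held 4 with 10, 15, 5 and 11 wild-type and 10, 13, 5 and 16 knockout reads. Zmiz1os1, named as lying opposite Zmiz1, held 3 with 21, 21 and 18 against 18, 14 and 14. Each was lower in the knockout library but within counting error, and no interval was computed for their sum. Morrbid, a lncRNA that controls the death gene Bcl2l11 in myeloid cells, held 2 (6 and 6 against 7 and 6) and Junos, beside Jun, 2 (9 and 7 against 9 and 8).

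Antigen receptor loci, whose gene segments are not protein-coding genes in this annotation, held 11 members, 5 in Igh, 4 in Tcrb and 2 in Tcra. The strongest was over Trbv12-2, with 19 and 12 reads. A run of 4 members on chromosome 17 between Esp15 and Esp38 stood out by its background, with 3 of them over the ribosomal RNA sequence Rn18s-rs5. Its pileups summed to 496 and 450 reads, but its local background ranged from 40.7 to 43.9 for the wild type and from 35.3 to 38.3 for the knockout, where the median member had 0.23 in both. Ribosomal DNA has many copies, of which assemblies hold few. No list of high-signal regions was removed here, and the part of such copies in these values was not tested.

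Some members lay close to one another. No share of other shared regions was computed beside this, and whether members lay closer than random placement would give was not tested. With a gap of up to 20 kb between neighbours, 231 members (26.2%) fell into 97 groups, 70 of 2, 20 of 3, 4 of 4 and 3 of 5 members, and 651 stood alone. The groups of 5 lay between Dyrk2 and Cand1 over 22.0 kb (46 and 49 reads in sum), between Myc and Gsdmc over 24.3 kb (41 and 43), and between Slc7a11 and Noct over 28.8 kb (58 and 59). The second lay 1603 kb from Myc, a gene with enhancers known to act in blood cells over more than a megabase. Besides the ribosomal run, groups of 4 lay between Anxa3 and Bmp2k (57 and 49 reads), near Klf14 (55 and 66) and near Uaca inside the lncRNA gene Gm51680 (64 and 75). For these 6 groups each interval of the knockout share held the pooled 52.2%.

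**Figure D5:**
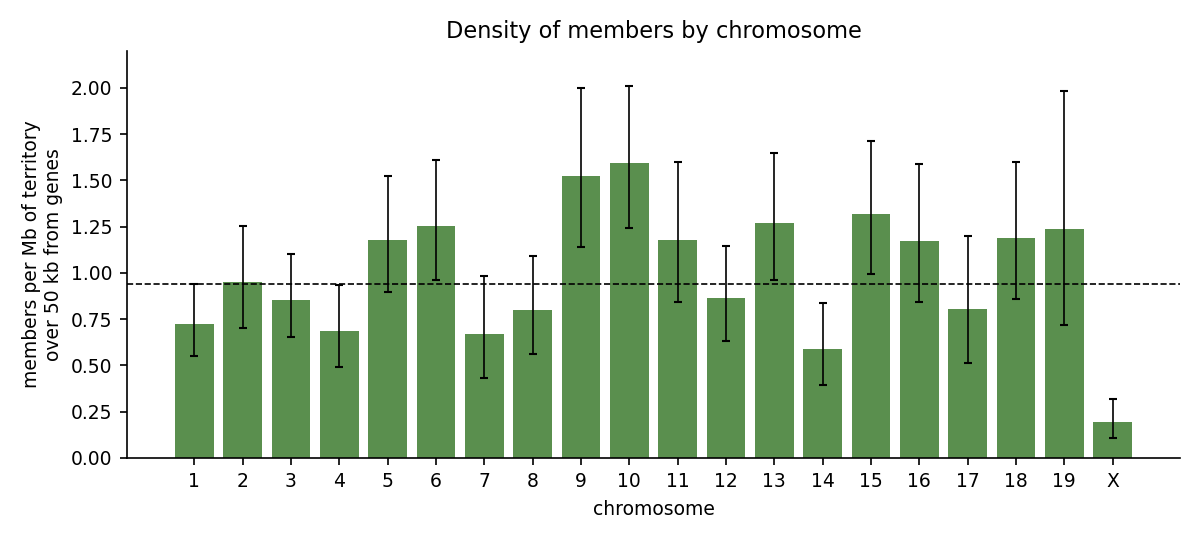
Members per Mb of territory more than 50 kb from protein-coding genes, by chromosome, with exact 95% Poisson intervals. The dashed line is the value over all chromosomes, 0.937. The whole intervals of chromosomes 6, 9, 10, 13 and 15 lie above it and those of chromosomes 4, 14 and X below it. Chromosome X, at 0.192, is the lowest.

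Chromosomes differed in the density of members. Chromosome 10 held 71 members, 1.59 per Mb of far territory (1.24 to 2.01), and chromosome 9 held 52, 1.53 per Mb (1.14 to 2.00). Chromosome X held 15, 0.192 per Mb (0.108 to 0.317), although it had the most far territory, 77.9 Mb. It held 258 shared regions of all kinds, of which 5.81% were members. Chromosome 14 had 0.586 per Mb (0.395 to 0.837) and chromosome 4 had 0.684 (0.489 to 0.932).

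The members at the edges of the rule showed what the distance limit took in. Just inside it lay members 50.2 kb from Neurod6 (8 and 8 reads), 50.2 kb from Rgs8 (4 and 6) and 50.3 kb from Lrrc74a (11 and 10). Just outside it were shared regions 49.96 kb from Tmco5 (8 and 9), 49.8 kb from Cstad (4 and 8) and 49.7 kb from Tle3 (9 and 12). The farthest member was 1318 kb from Olfm4, with 8 and 8 reads. Next came one 1144 kb from Efnb2 (8 and 7) and one 1060 kb from Gata3 (15 and 17, percentile 84.8 and 83.5), and 2 V segments of Igh (6 and 8, 7 and 6). Gata3 encodes a factor of T cell and group 2 lymphoid fate, and the site near it was the only strong one of these 5.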

How the data were processed

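Each library was 50 bp single-read ATAC-seq with a stated depth of 10M reads. Reads were trimmed, aligned and called into peaks against mm10, the submitters' processing notes naming Trimmomatic, Bowtie2 and MACS2. Versions, parameters, a shift to the Tn5 cut site and removal of duplicates or high-signal regions were not given in the sources used here. The authors deposited 1 peak list per library, giving for each peak the −log10 p-value and −log10 q-value, the fold enrichment and a score. In 100% of peaks the deposited score equalled the −log10 q multiplied by 10. From the deposited fold, read as (pileup + 1) / (background + 1), and the −log10 p, read as Poisson, a whole-number summit pileup was recovered for 100% of peaks (tolerance 0.001). A region with several peaks of a list took the values of the strongest. Peak values can depend on depth, so lists were compared through ranks and pileup shares.

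Genes came from a RefSeq table of GRCm38.p6 (21631 protein-coding genes, 27923 others). It gives intervals without strand, and no genome sequence was used, so the planned motif search over all members was replaced by promoter windows. Windows of 1 mouse chromosome were not in the table used. SciPy 1.17.1, pandas 2.3.3, NumPy 2.4.6 and matplotlib 3.10.9 were run under Python 3.11.15. Intervals are 95%: Clopper-Pearson for shares, Newcombe for differences of shares, order statistics for medians. They cover counting error only and treat regions as independent.

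The members and gene lists were chosen with earlier results of these data known. Named members are the 10 strongest by mean percentile, the 5 largest rank differences in each direction, the 5 farthest, 3 on each side of the distance limit, the groups of 4 or 5, the genes nearest to most members and all members next to a listed gene. The comparison of pileups, the locus sums and the GATA split were chosen after the data were seen, as were the named lncRNA genes. The steps were tested on simulated data. Some listed genes and markers are not reported here.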

Additional observations from a re-analysis of the deposited data

How the results depend on the processing

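No paired analysis was possible because the design holds a single library of either genotype, and no replicate could be left out. Of 78 values under alternatives, 59 stayed within the reported interval or, for counts, within 1.5 times. A reciprocal overlap of 50% left fewer shared regions by construction: far regions were then shared in 42.8%, the median −log10 q of members was 9.95 and 10.3, summits lay within 50 bp in 80.7%, 2.99% held more than 1 peak of a list, and 12.97% of all shared regions ranked lower. A limit of 100 kb left 508 members (3.95% of shared regions, 0.689 per Mb of its territory). With genes of all types as the limit, 188 members remained (1.46%), of which 19.7% ranked lower. This setting allows no overlap with noncoding genes. Ranks by fold gave 12.95% lower among all shared regions. At a rank difference of 40 points, 4.65% of members ranked higher and 6.92% lower, against 4.996% and 4.96% of all shared regions. Summit pileups with an exact interval, chosen after the data were seen, gave 0.340% and 0.454%. Without the 4 members of high local background, also chosen later, 878 were left. Nearest gene starts in place of intervals gave 73 members next to listed genes, not 93. Motif windows of 100 bp and motif comparisons within classes of strength were not run, for want of a genome sequence. Depth limits what single members can show, at a median pileup of 9 in both libraries.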
